A study of Rattus norvegicus with 172 samples.

Results

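Dentate granule cells, which receive the main cortical input to the hippocampus, were profiled for 10 genes of the membrane and its cytoskeleton across 4 rat models of epilepsy. They were the ERM genes Msn (moesin), Ezr (ezrin) and Rdx (radixin), the hyaluronan receptor Cd44, the annexins Anxa1, Anxa2 and Anxa3, and S100a4, S100a6 and S100a10. All 10 were among the 10761 genes tested, and each was found by its gene symbol. They were selected on their measured change from controls of the same laboratory in these same arrays, so every change from control below is a description and carries no test.

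ERM proteins tie the actin cortex to the plasma membrane. They are held closed in the cytosol, and binding to membrane phosphoinositides followed by phosphorylation by kinases such as Rock2, Slk and Stk10 opens them. Cd44, a receptor for the matrix sugar hyaluronan, is one of the membrane proteins whose tail they bind. Annexins bind acidic phospholipids when calcium rises, and S100 proteins are small EF-hand proteins that bind calcium and then a partner. S100a10 is the exception, since it has lost calcium binding and forms a stable complex with Anxa2 at the membrane. In brain, ezrin is known from fine astrocyte processes, moesin from microglia and blood vessels, and Cd44 from astrocytes.

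RNA came from granule cells cut by laser from frozen sections of male Sprague-Dawley rats of 175 to 250 g, with 1 array per rat in most cases (172 arrays of 164 rats). Pilocarpine, a cholinergic agonist, was given at 300 to 350 mg/kg after methylscopolamine in 2 laboratories, and status epilepticus (SE, continuous seizures) was stopped with pentobarbital after 90 min. Kainate, a glutamate receptor agonist, was injected hourly at 5 mg/kg until SE. In laboratory A seizures ended unaided within 6 to 8 h. Laboratory B began with 7.5 mg/kg and stopped SE after 90 min. Self-sustaining status epilepticus (SSSE) came from 1 laboratory and kindling, repeated stimulation that brings on seizures of rising stage, from 2, both with protocol details not given in the sources used here. Groups after SE were of day 1, day 3 and day 10, and kindled groups of stage 2, stage 4 and stage 5, each with controls of the same laboratory, which had saline in the pilocarpine and kainate models. Laboratories and times made 28 groups of 6 rats, except that SSSE had 6 at day 1, 5 at day 3, 4 at day 10 and 5 controls.

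Values are log2(signal + 16), on which a signal of 0 stands at 4, and median signals per array ran from 28 to 54.2. Granule cell markers were strong (Prox1 averaged 11.2 and Calb1 10.7 in controls), and astrocyte markers were present too (Gja1 11, Gfap 9.0). So were oligodendrocyte markers (Mbp 10.65, Cldn11 9.79, Mobp 9.03) and, among microglia and macrophage markers, Ctss (7.96). Of 16 microglia and macrophage markers, 13 were measured, and Cx3cr1, Itgam and Trem2 were not. In these bulk captures, fewer cells of a type and less RNA per cell cannot be told apart. SSSE day 1 rat 3 was placed by its title and the series design, although its source name and harvest time call it a control. Kindling laboratory A stage 2 rat 4 was placed by its laboratory and its stage, although its title, source name and model field say kainate. SSSE results are given with the rat moved or left out. The labels do not say which animals shared a litter, a batch or a day.

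The first 300 bases around the transcript start (250 before it and 50 after) are shown for Msn, the gene that changed most, and for Cd44 and Anxa2, the members whose window held a searched motif. Sequences are those of RefSeq, build GRCr8, which matched 9 of the 10 genes by symbol (S100a10 was not among them). They are written 5′ to 3′ on the gene's strand, and capitals mark a match.
Msn, chrX:65005296-65005595, plus strand: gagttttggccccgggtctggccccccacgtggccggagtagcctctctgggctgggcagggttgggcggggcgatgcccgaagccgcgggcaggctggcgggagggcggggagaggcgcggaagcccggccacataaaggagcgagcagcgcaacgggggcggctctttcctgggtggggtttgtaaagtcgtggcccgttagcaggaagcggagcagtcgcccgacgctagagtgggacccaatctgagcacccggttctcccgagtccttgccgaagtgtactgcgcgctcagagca
Cd44, chr3:109699375-109699674, minus strand: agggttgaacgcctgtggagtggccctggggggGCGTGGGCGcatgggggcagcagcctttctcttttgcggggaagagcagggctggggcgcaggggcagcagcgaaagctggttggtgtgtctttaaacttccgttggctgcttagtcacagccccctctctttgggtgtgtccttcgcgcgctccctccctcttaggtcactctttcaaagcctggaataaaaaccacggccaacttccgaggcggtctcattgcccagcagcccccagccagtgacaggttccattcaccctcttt
Anxa2, chr8:78986002-78986301, plus strand: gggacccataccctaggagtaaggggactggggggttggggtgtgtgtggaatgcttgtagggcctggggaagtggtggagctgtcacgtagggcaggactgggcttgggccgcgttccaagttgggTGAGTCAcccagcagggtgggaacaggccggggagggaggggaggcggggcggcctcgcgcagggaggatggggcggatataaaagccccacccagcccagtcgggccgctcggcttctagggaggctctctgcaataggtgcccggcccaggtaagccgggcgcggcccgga
The 5 motifs of factors known to be active after seizures or cytokines were searched on both strands. The AP-1 motif (TGACTCA or its complement TGAGTCA) was found in 1 of 9 members, Anxa2, 123 bases before the start, and in 4.63% of all 33469 promoters. The EGR motif (GCGTGGGCG or CGCCCACGC) was found in Cd44, 217 bases before the start, against 0.544% of all promoters. The CRE motif (TGACGTCA), the STAT motif (TTCCNGGAA) and the CArG box were in none of the 9 windows, and in 1.83%, 1.27% and 1.64% of all promoters. None of these motifs overlap each other in the windows shown. The 300 bases of Msn hold none of the 5, and are 68.7% G and C.

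Msn, which codes for moesin, was the member with the largest change one day after SE. At kainate day 1 it ran from 8.14 to 10.2 with a median of 8.95, against 5.33 to 6.56 with a median of 5.68 in controls (n = 12 each). All 12 kainate rats lay above every control of their laboratory, which held for 3.53% of all genes. The mean change was 3.18 ± 0.21 (log2, SE of the fit), a 9.09-fold increase, and the median signal was 478, against 35.2 in controls. At pilocarpine day 1 it ran from 6.63 to 9.55 (median 8.81), against 5.24 to 6.66 (median 5.84) in controls, and 11 of 12 rats lay above the controls of their laboratory. The change there was 2.64 ± 0.36. Later it was smaller: 1.17 ± 0.36 at day 3 and 1.48 ± 0.36 at day 10 after pilocarpine, and 1.09 ± 0.21 and 1.05 ± 0.21 after kainate. At kainate day 10, 9 of 12 rats still lay above their controls. A second probe set of Msn lay near the floor (mean 4.25) and did not pass the filter on low values. It changed by 0.05 at kainate day 1 and -0.03 at pilocarpine day 1.

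In SSSE the Msn rats split. The 6 day 1 rats had 9.42, 8.36, 7.51, 5.66, 7.70 and 5.95, against 5.58, 5.28, 5.45, 5.80 and 4.97 in the 5 controls. Rats 4 and 6 were near or in the control range, while the other 4 lay well above it. The mean change was 2.02 ± 0.57 at day 1. At day 3 the values of rats 2 to 6 were 5.70, 6.98, 8.93, 6.11 and 6.47, with rat 4 apart from the rest, and at day 10 they were 5.49, 5.83, 5.83 and 6.05. Kindled rats ran from 5.46 to 7.52 at stage 2, from 5.31 to 6.66 at stage 4 and from 5.72 to 6.65 at stage 5, against 5.09 to 6.39 in controls. These ranges overlap, and the mean change was 0.26, 0.18 and 0.30 (each ± 0.13).

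Ezr, the ezrin gene, changed less. At kainate day 1 it ran from 6.48 to 8.95 (median 7.00), against 5.64 to 7.94 (median 6.10) in controls, a change of 0.99 ± 0.19. Control rat 5 of laboratory A had 7.94, where the other controls there had 6.03 to 6.60. After pilocarpine the day 1 range was 5.57 to 7.54 (median 6.59), against 5.57 to 7.08 (median 5.86), a change of 0.51 ± 0.19. The groups overlap, with 4 of 12 pilocarpine rats above the controls of their laboratory. At SSSE day 1 Ezr was 6.98, 7.03, 7.29, 6.86, 7.06 and 6.55, against 6.36 to 6.59 in controls, so that 5 of 6 rats lay above. From day 3 on, the change was between -0.19 and 0.26 in every SE model.

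Rdx, the radixin gene, was steady in most groups. Its change was 0.09 ± 0.17 at pilocarpine day 1 and 0.32 ± 0.12 at kainate day 1, where 7 of 12 rats lay above their controls. In SSSE it was low later on: the 5 day 3 rats had 7.82, 7.69, 7.21, 7.52 and 8.07 and the 4 day 10 rats 7.42, 7.99, 7.74 and 7.95, against 8.41, 8.11, 8.28, 8.31 and 8.98 in controls. All 9 of these rats lay below the lowest control, and the share of all genes doing so was not counted. Their means differed from the mean of the controls by -0.76 ± 0.20 at day 3 and -0.64 ± 0.21 at day 10. SSSE controls had the highest Rdx of the 7 laboratories. Probe sets disagreed on Rdx. At pilocarpine day 1 the probe set used, which is the brightest, changed by 0.09, while the next in brightness changed by 0.58 and 0.51.

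**Figure D1:**
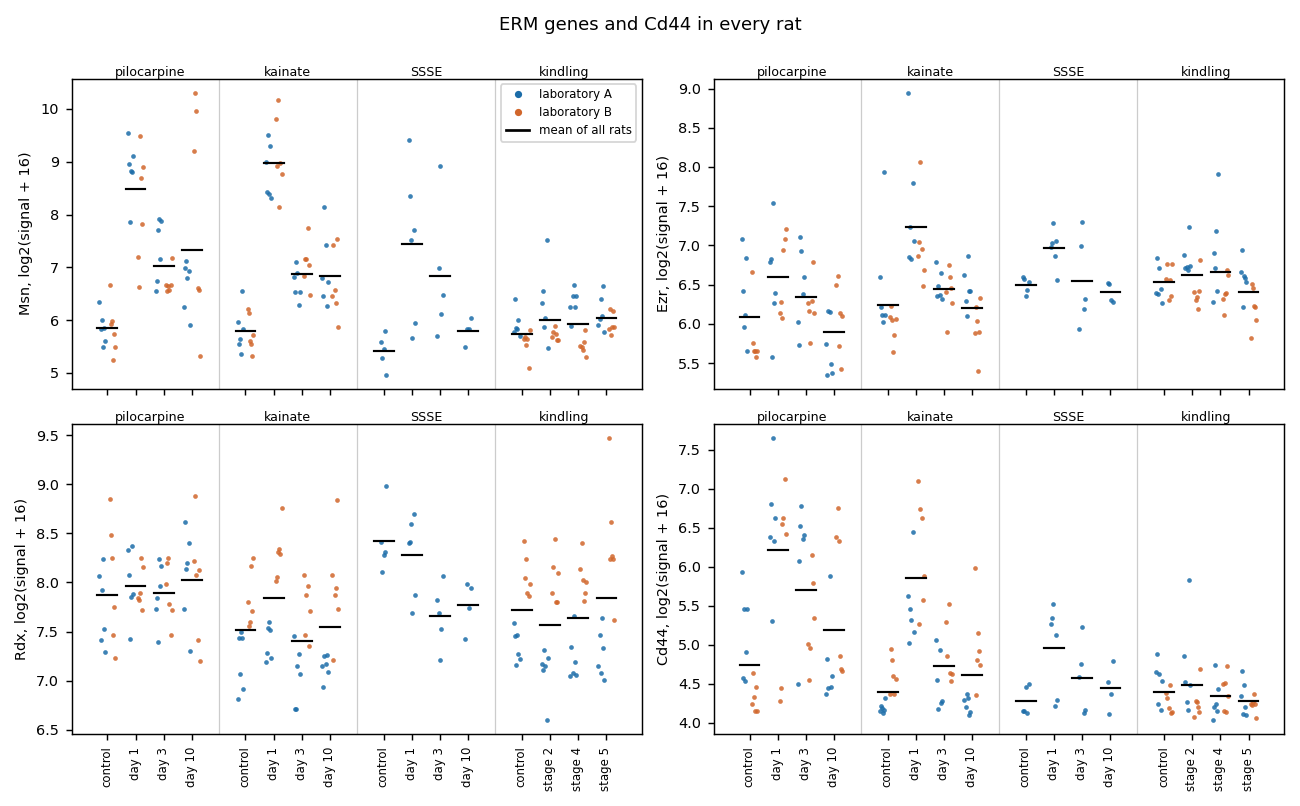
Values of Msn, Ezr, Rdx and Cd44 in every rat, as log2(signal + 16) on the vertical axis, by model and by time or stage on the horizontal axis. Each point is 1 rat, coloured by laboratory (SSSE has laboratory A alone), and the bar is the mean of all rats of that time: at day 1 Msn averaged 8.97 in kainate rats, against 5.79 in their controls.

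Cd44 was barely above the floor of the scale in controls. At kainate day 1 it ran from 5.03 to 7.10 (median 5.60), against 4.13 to 4.94 (median 4.34) in controls. No kainate rat overlapped the controls of its laboratory, where 3.53% of all genes had every rat above them. The change of Cd44 was 1.45 ± 0.17, with a median signal of 32.4, against 4.26 in controls. After pilocarpine the day 1 range was 4.28 to 7.65 (median 6.49), against 4.16 to 5.93 (median 4.56), and the change was 1.48 ± 0.30, with 9 of 12 rats above their controls. At pilocarpine day 3 it was 0.97 ± 0.30, while at kainate day 3 it was 0.33 ± 0.17. At SSSE day 1 rats 4 and 6, the same rats that were low in Msn, had 4.21 and 4.29, and the other 4 had 5.12 to 5.53, against 4.12 to 4.50 in controls. With so little signal in controls, the size of the change depends on the value added before the logarithm. At kainate day 1 it was 2.92 with 1 added and 0.65 with 64 added. The second probe set of Cd44 (mean 4.59, against 4.87 for the one used) did not pass the filter on low values. It changed by 0.49 at kainate day 1 and 0.28 at pilocarpine day 1.

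Among the annexins, Anxa2 stood closest to Msn and Cd44. This calcium-dependent membrane binder, the partner of S100a10, ran from 6.29 to 8.44 (median 7.14) at kainate day 1, against 4.59 to 7.75 (median 5.43) in controls. The change was 1.67 ± 0.27 and 7 of 12 rats lay above the controls of their laboratory. Kainate laboratory A control rat 5 had 7.75 where the other 5 controls there had 4.59 to 5.53. At pilocarpine day 1 Anxa2 ran from 5.03 to 8.96 (median 7.05), against 4.23 to 7.04 (median 5.05), with a change of 1.70 ± 0.33. By kainate day 3 it was 0.38 ± 0.27, and by pilocarpine day 3 it was 0.93 ± 0.33. A second probe set of Anxa2, near the floor (mean 4.27), did not pass the filter on low values. Its change was 0.006 at kainate day 1 and 0.14 at pilocarpine day 1.

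Anxa1, a mediator that dampens leukocyte recruitment, was near the floor and moved by less. Its change was 0.80 ± 0.20 at pilocarpine day 1 (4.95 to 6.38, against 4.07 to 5.5 in controls) and 0.53 ± 0.18 at kainate day 1 (4.98 to 6.24, against 4.18 to 6.04). The groups overlap in both models. Later changes lay between -0.05 and 0.52.

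Anxa3, which is found in microglia, followed another course, with its highest means at day 3. At kainate day 3 it ran from 6.02 to 7.52 (median 7.02), against 5.39 to 6.56 (median 5.89) in controls, and 11 of 12 rats lay above their controls. The changes after kainate were 0.73 ± 0.16 at day 1, 1.03 ± 0.16 at day 3 and 0.73 ± 0.16 at day 10. After pilocarpine they were 0.17 ± 0.18, 0.85 ± 0.18 and 0.52 ± 0.18. In SSSE the 5 day 3 rats had 6.55, 6.82, 7.76, 7.07 and 6.61 and the 4 day 10 rats 6.89, 6.56, 6.41 and 7.01, against 5.93, 5.97, 5.99, 6.35 and 5.69 in controls. All 9 lay above the highest control, as 3.86% of all genes did at day 3 and 3.68% at day 10. The second brightest probe set of Anxa3 changed by 0.64 at kainate day 3 and 0.90 at pilocarpine day 3, and the next by 0.12 and 0.04. At kainate day 1, where the brightest changed by 0.73, these changed by 0.22 and -0.14. The probe sets therefore did not give 1 size, nor 1 direction at day 1.

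S100a4, a calcium-binding protein that acts on non-muscle myosin, was high at both day 1 and day 3. At kainate day 1 it ran from 6.42 to 8.41 (median 7.20) and at day 3 from 6.18 to 8.18 (median 7.10), against 4.8 to 6.14 (median 5.21) in controls. At pilocarpine day 1 it ran from 6.13 to 8.10 (median 6.94) and at day 3 from 6.22 to 10.0 (median 7.96), against 4.50 to 5.90 (median 5.43). All 12 rats of each of these groups lay above every control of their laboratory. Of all genes, 3.53% and 0.706% did so at days 1 and 3 after kainate, and 0.92% and 0.771% after pilocarpine. The changes of S100a4 were 2.00 ± 0.21 and 1.89 ± 0.21 after kainate and 1.60 ± 0.27 and 2.64 ± 0.27 after pilocarpine. At day 10 they were 0.50 ± 0.21 after kainate and 1.0 ± 0.27 after pilocarpine. In SSSE the day 1 rats had 7.77, 6.31, 6.30, 5.39, 5.41 and 5.21 and the day 3 rats 5.32, 6.67, 7.61, 5.91 and 5.45, against 4.48, 4.91, 4.85, 5.07 and 4.86 in controls. All 11 lay above the controls, some by little, where 2.95% of all genes did at day 1 and 3.86% at day 3.

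S100a10, the partner of Anxa2, had the largest change after that of Msn at day 1 of the 3 SE models. At kainate day 1 it ran from 7.96 to 9.50 (median 8.40), against 5.35 to 7.12 (median 6.26) in controls, a change of 2.28 ± 0.20. At pilocarpine day 1 it ran from 6.95 to 9.77 (median 8.67), against 5.46 to 7.81 (median 5.90), a change of 2.47 ± 0.29. All 12 rats of each group lay above every control of their laboratory (3.53% of all genes after kainate and 0.92% after pilocarpine). At day 3 it was 1.87 ± 0.29 after pilocarpine and 0.75 ± 0.20 after kainate. At SSSE day 1 the values were 7.61, 7.52, 7.38, 5.83, 7.03 and 5.15, against 5.14, 5.58, 5.06, 5.43 and 4.95 in controls, so that rats 4 and 6 were again the lowest.

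S100a6, whose partner Cacybp belongs to a ubiquitin ligase complex, changed by 1.15 ± 0.22 at pilocarpine day 1 and 1.12 ± 0.22 at day 3, and by 1.12 ± 0.23 and 0.64 ± 0.23 at the same days after kainate. Its day 1 range after kainate was 5.33 to 7.10, against 4.12 to 6.28 in controls, and 5 of 12 rats lay above the controls of their laboratory. S100a4 and S100a6 lie close together on rat chromosome 2 with only S100a5 between them among coding genes, which S100a3 adjoins on the other side of S100a4.

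**Figure D2:**
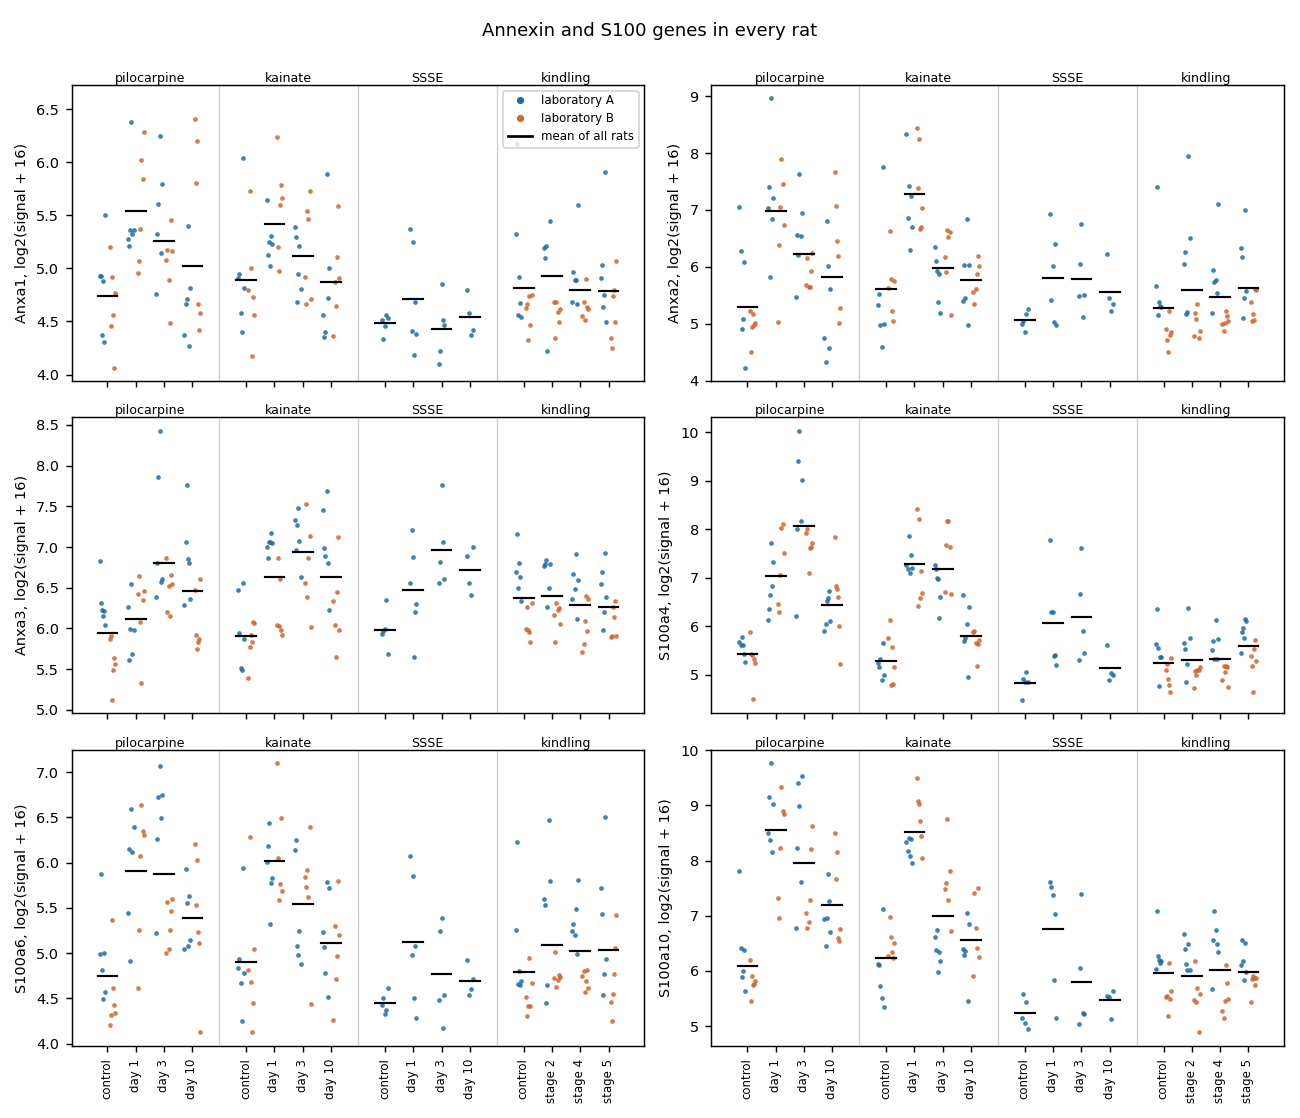
Values of Anxa1, Anxa2, Anxa3, S100a4, S100a6 and S100a10 in every rat, as log2(signal + 16) on the vertical axis, by model and by time or stage on the horizontal axis. Each point is 1 rat, coloured by laboratory, and the bar is the mean of all rats of that time: S100a4 averaged 8.07 at pilocarpine day 3, against 5.44 in controls.

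Counted over the 10 genes with limma's adjusted p under 0.05, 8 were higher at pilocarpine day 1, where 15.8% of all genes tested were called higher, 6 at day 3 (7.74% of all) and 3 at day 10 (3.82%). After kainate all 10 were higher at day 1 (22.2% of all), 4 at day 3 (4.66%) and 2 at day 10 (2.57%). In SSSE 2 were higher at day 1 (5.51%), Msn and S100a10. At SSSE day 3, 1 was higher, Anxa3 (1.66%), and 1 lower, Rdx (1.48%), and at day 10 none passed (0.177% of all higher, and 1004 genes at an unadjusted p under 0.05). Kindling gave 0 at stage 2, stage 4 and stage 5, where 0%, 0% and 3.23% of all genes were higher and 523, 504 and 2322 had an unadjusted p under 0.05. The median change of the 10 was 1.31 at pilocarpine day 1 and 1.29 at kainate day 1, against 0.0034 and 0.016 over all genes tested. Of all genes, 16.3%, 3.92% and 5.11% were lower at days 1, 3 and 10 after pilocarpine, 19.4%, 3.3% and 3.71% after kainate, 7.02% at SSSE day 1, 0.167% at SSSE day 10 and 3.87% at kindling stage 5, with no member among them. Since these contrasts chose the genes, nothing is read from the counts. Every rat lay above every control of its laboratory in 4 of the 10 at kainate day 1 (3.53% of all genes), 2 at pilocarpine day 1 (0.92%) and 1 at SSSE day 1 (2.95%). At day 3 this held for 1 after kainate (0.706%), 1 after pilocarpine (0.771%) and 2 in SSSE (3.86%), and at SSSE day 10 for 1 (3.68%).

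**Figure D3:**
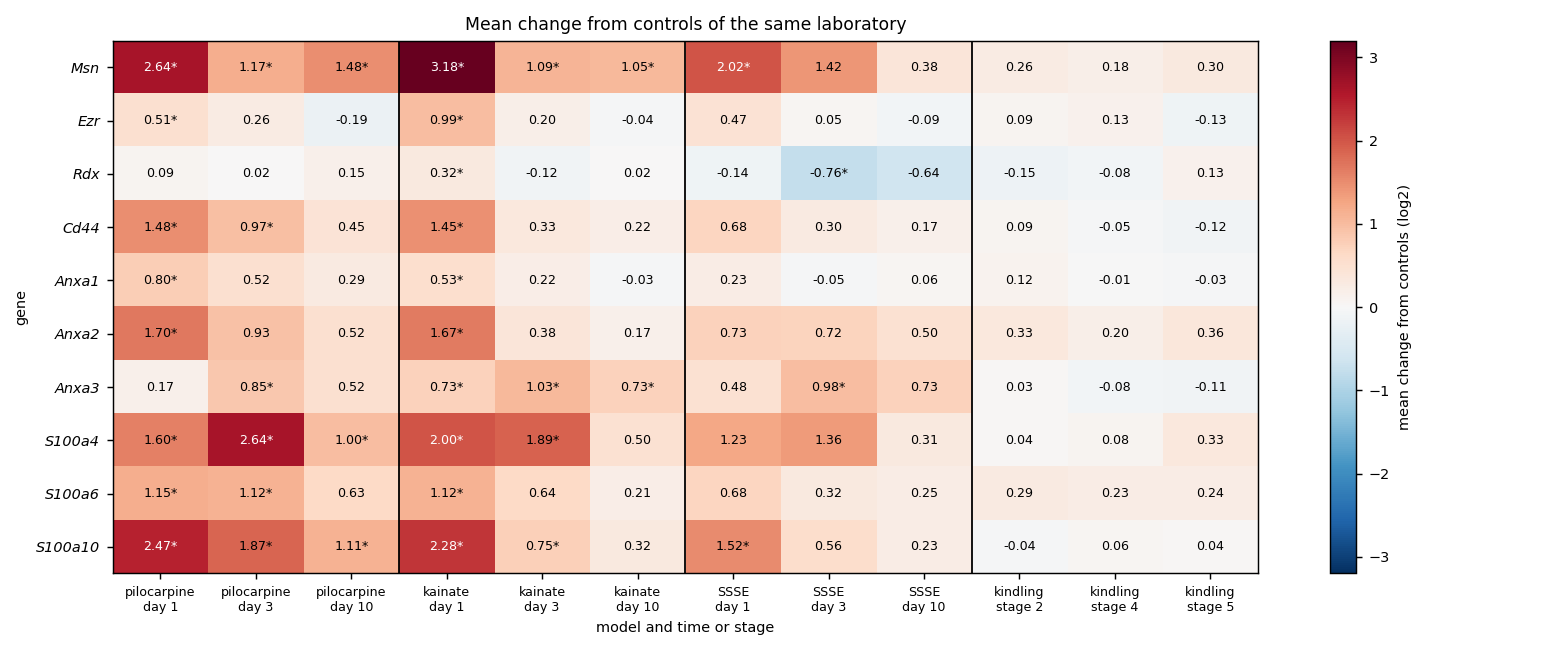
Mean change from the controls of the same laboratory (log2, averaged over laboratories) for the 10 genes, one row per gene and one column per model and time or stage. Red is higher and blue lower than controls, and an asterisk marks a limma adjusted p under 0.05 over all genes tested: Msn has 3.18 at kainate day 1, and no kindling column has an asterisk.

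The SSSE counts turned on single rats and on how day 1 rat 3 was placed. Left out, that rat brought the day 1 count to 1, and counted as a control it brought both the day 1 and the day 3 count of higher genes to 0. The day 1 count was 0 without control rat 3 or 5 or without day 1 rat 1, 2 or 5, it was 1 without control rat 1 or 2, and it was 4 without day 1 rat 4, 6 without day 1 rat 6 and 5 without day 3 rat 4. The day 3 count of higher genes was 0 without control rat 1, 2, 3 or 5 or without day 3 rat 3, 4 or 5, and 2 without day 1 rat 1 or day 3 rat 2. Rdx at day 3 no longer passed without any one of the 5 controls, without day 1 rat 2 or 3, without day 3 rat 3, 4 or 5, or without day 10 rat 2, 3 or 6. The summed signal of the mural and fibroblast markers was 1174 in day 1 rat 3, against 103 to 255 in the other day 1 rats, and its part in the result was not tested.

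The differences between days are differences of the same changes from control that chose the genes, so they too are given as a description with no test. From kainate day 1 to day 3, 6 of the 10 were lower with limma's adjusted p under 0.05, where 15.9% of all genes were (31.1% in either direction). Msn differed by -2.09 ± 0.21 (day 3 minus day 1). S100a10 differed by -1.53 ± 0.20, Anxa2 by -1.29 ± 0.27, Cd44 by -1.13 ± 0.17, Ezr by -0.79 ± 0.19 and Rdx by -0.44 ± 0.12. For Rdx, laboratory A alone gave -0.33 and laboratory B alone -0.56, neither with an adjusted p under 0.05. S100a4 differed by -0.11 ± 0.21, with a 95% interval of -0.52 to 0.31. Several members passed the filter on low values mostly through rats other than controls: Cd44 lay above the array median in 28 of 123 such rats, against 1 of 41 controls, Anxa1 in 15, against 2, and S100a6 in 41, against 4.

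From pilocarpine day 1 to day 3, Msn differed by -1.47 ± 0.36, S100a4 by 1.03 ± 0.27 and Anxa3 by 0.69 ± 0.18, the 3 members counted there (9.13% of all genes were lower and 23.2% differed in either direction). Laboratory B alone gave -1.41, 0.43 and 0.28 for these 3. From day 3 to day 10, S100a4 differed by -1.64 ± 0.27 after pilocarpine (1.53% of all genes lower and 1.68% in either direction) and by -1.39 ± 0.21 after kainate (0.595% lower and 0.743% in either direction). It was the one member counted in both models, with -1.13 in pilocarpine laboratory B alone and -0.95 in kainate laboratory A alone. Neither SSSE (0.604% of all genes from day 1 to day 3, and 0% from day 3 to day 10) nor kindling (0% from stage 2 to stage 4, 2.65% from stage 2 to stage 5 and 0.0186% from stage 4 to stage 5) gave a member so counted. In all, 11 of 90 such differences had an adjusted p under 0.05.

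**Figure D4:**
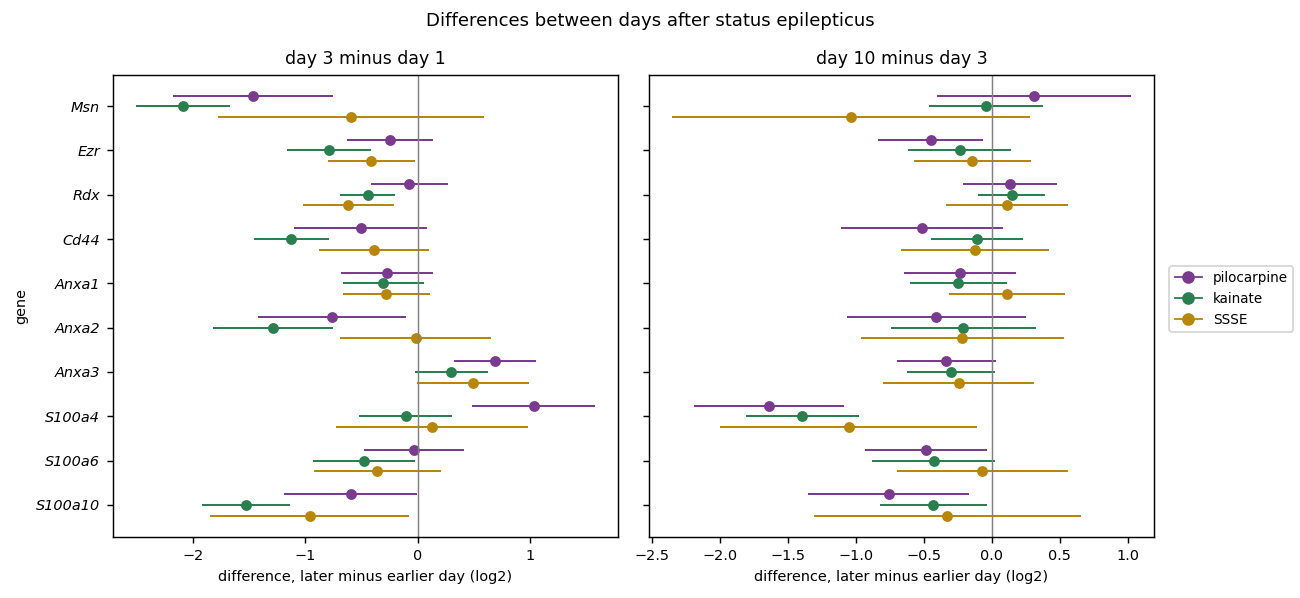
Difference between days for each gene (log2, later minus earlier day, averaged over laboratories) with its 95% interval, for pilocarpine, kainate and SSSE. Msn at -2.09 after kainate stands farthest to the left for day 3 minus day 1, and S100a4 has -1.64 after pilocarpine and -1.39 after kainate for day 10 minus day 3.

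The laboratories of a model were set against each other by the difference of their changes from control. These differences also combine changes that chose the genes, and are given with no test. Of 90 such differences, 0 had a limma adjusted p under 0.05 and 6 had an unadjusted p under 0.05. At most 0.00929% of all genes had an adjusted p under 0.05 in a comparison. For kainate day 1, where SE ended by itself in laboratory A and was stopped in laboratory B, Msn changed by 3.00 ± 0.29 in A and 3.37 ± 0.29 in B, and S100a10 by 2.24 ± 0.28 and 2.32 ± 0.28. Anxa3 changed by 1.06 ± 0.23 in A and 0.40 ± 0.23 in B. Cd44 at pilocarpine day 10 was lower than controls by -0.38 ± 0.42 in A and higher by 1.28 ± 0.42 in B. That is a difference of -1.67, with a 95% interval of -2.86 to -0.47.

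Rats 1, 2 and 3 of pilocarpine laboratory B stood apart at day 10. Msn was 9.21, 10.3 and 9.96 in them, against 6.60, 6.58 and 5.31 in rats 4, 5 and 6 and 5.24 to 6.66 in controls. Cd44 was 6.38, 6.75 and 6.33 in the first 3, against 4.86, 4.69 and 4.66, and S100a10 was 8.5, 7.66 and 8.16, against 6.59, 6.54 and 6.76. Msn in the day 1 rats of that laboratory ran from 6.63 to 9.48, so these 3 rats were in or above the day 1 range. Anxa3 did not split this way, at 6.47, 5.92 and 5.75 against 5.84, 5.87 and 6.61. Nor did Ezr and Rdx. Relative to the mean of the controls, Ezr was -0.11 to 0.78 in rats 1 to 3, against -0.40 to 0.32. Rdx was 0.07 to 0.87, against -0.80 to 0.12. Summed astrocyte marker signal was 2794 to 3772 in rats 1 to 3, against 5714 to 6225 in rats 4 to 6, and summed granule cell marker signal 12453 to 14862, against 16652 to 20830. Summed microglia and macrophage marker signal was 508 to 837, against 767 to 963. The part of these marker signals in the result was not tested. Without these 3 rats, an alternative chosen after the data were seen, 0 members instead of 3 were higher at pilocarpine day 10, and the change of Msn was 0.57 ± 0.26 instead of 1.48 ± 0.36. The highest Msn value of any rat, 10.3, is rat 2 of this group. That rat is among the 6 that correlated least with their group (median correlation 0.907). The day 1 rats of pilocarpine laboratory B were split too. Relative to the mean of the controls, Cd44 was -0.05 and 0.12 in day 1 rats 1 and 2, against 2.09 to 2.79 in rats 3 to 6. Msn was 1.36 and 0.79, against 1.98 to 3.64, while Ezr, Rdx and Anxa3 did not split this way. Summed astrocyte marker signal was 5663 and 9324, against 2781 to 3257. The cause of this split was not tested.

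**Figure D5:**
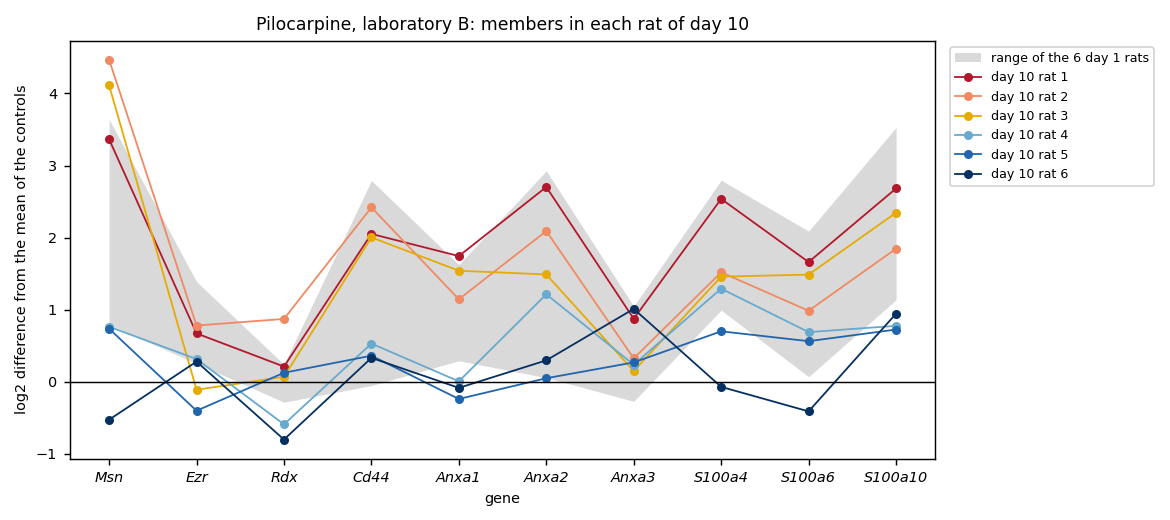
Difference of each gene from the mean of the controls (log2) in the 6 day 10 rats of pilocarpine laboratory B, 1 line per rat, with the range of the 6 day 1 rats of that laboratory shaded. Rats 1, 2 and 3 run together from 3.36 to 4.47 for Msn, while rats 4, 5 and 6 run from -0.53 to 0.76.

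Differences between models are also differences of the changes that chose the genes, and are given with no test. None of 120 such differences had a limma adjusted p under 0.05, and 25 had an unadjusted p under 0.05. Of all genes, 3.63% had one below the threshold for pilocarpine against kainate at day 1, 2.36% for pilocarpine against SSSE at day 1, 2.61% for pilocarpine day 10 against kindling stage 5 and 0.465% for pilocarpine against kainate at day 10, with 0% to 0.743% in the other comparisons. The change of S100a10 at pilocarpine day 10 minus that at kindling stage 5 was 1.07 ± 0.34, with a 95% interval of 0.41 to 1.73. At day 3 that of S100a10 differed by 1.12 ± 0.34 between pilocarpine and kainate (interval 0.45 to 1.78). At day 1 the change of Anxa3 differed by -0.56 ± 0.22 between pilocarpine and kainate (interval -1.0 to -0.12). That holds for its brightest probe set only. The next in brightness changed by 0.41 and -0.11 at pilocarpine day 1, against 0.22 and -0.14 at kainate day 1. Msn at day 1 differed by 1.17 ± 0.50 between kainate and SSSE (interval 0.17 to 2.16).

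The choice of the genes did not compare controls of different laboratories, but the control values entered the changes that chose them. This comparison is therefore given as a description too. Over the 7 laboratories 5 members differed (limma F-test, where 68.9% of all genes did), and laboratory and model cannot be told apart. Rdx ran from a mean of 7.19 in kainate laboratory A to 8.42 in SSSE (adjusted p = 4.3e-07) and Anxa3 from 5.60 in pilocarpine laboratory B to 6.69 in kindling laboratory A (0.00039). S100a10 ran from 5.23 in SSSE to 6.49 in kainate laboratory B (0.0063), Ezr from 5.83 to 6.55 (0.016) and Cd44 from 4.19 to 5.14 (0.043). Cd44 lay near the floor in controls, above the array median in 1 of 41, and passed the filter mostly through other rats. Msn did not pass, with means of 5.42 to 5.92 (adjusted p = 0.90).

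The 10 genes also differed in how they varied from rat to rat. With each value set against the mean of the controls of its laboratory, over 164 rats, Msn and S100a10 had Pearson's r = 0.84, Cd44 and S100a10 0.80, Anxa2 and S100a6 0.80 and Anxa1 and Anxa2 0.76. The 8 members other than Rdx and Anxa3 had pairs of 0.49 to 0.84. Anxa3 had 0.27 to 0.58 with the 8 and Rdx 0.06 to 0.27. These values describe rats that share treatments, laboratories and arrays, and carry no test. The genes most like Msn were Timp1 (0.92), Sdc1 (0.90) and Flnc (0.89), and those most like S100a10 were Lgals3 (0.90), Cd63 (0.89) and Tmbim1 (0.89). S100a4 stood closest to S100a3 (0.87), Vim (0.87) and Lgals3 (0.85), S100a6 to Vim (0.82), Tspo and Ifitm1, Cd44 to Tgfbi (0.82), Ccl2 and Cd14, and Anxa2 to Cd63 (0.83), Emp1 and Tgfbi. Anxa3 stood closest to the complement gene C1qa (0.72), Tmem176a and Tmem176b, Anxa1 to Ifitm1 (0.74), Fn1 and Emp1, Ezr to Sdc4 (0.73), Plod2 and Ppp1r36, and Rdx to Zdhhc20 (0.63), Ubn2 and Xiap.

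The lists of related genes and of markers were chosen with earlier results of these data known. Their adjusted p-values, here and below, are therefore descriptions and no independent test. Genes named from them are those that passed with the largest changes, and nothing is read from the counts. Of the other S100 genes measured, S100a3 had the largest changes. It was higher than controls by 2.10 ± 0.18 at kainate day 1 (limma adjusted p = 4.4e-13), 1.57 at day 3 and 0.82 at day 10, and by 1.57 ± 0.18, 2.05 and 1.54 on these days after pilocarpine (9.7e-09 at day 1). It also passed at SSSE day 1 (1.16 ± 0.31, adjusted p = 0.020) and, by 0.33 ± 0.09, at kindling stage 5 (0.023), where no member did. S100b, the astrocyte S100 gene, fell by 0.66 at kainate day 1, 0.58 at pilocarpine day 1 and 0.73 at SSSE day 1. S100a1 fell by 0.60 at pilocarpine day 1 and 0.63 at SSSE day 1. Of 6 other S100 genes measured, 2 were higher and 3 lower at pilocarpine day 1, and 1 higher and 2 lower at kainate day 1. Of all genes tested, 15.8% were higher and 16.3% lower at pilocarpine day 1, and 22.2% and 19.4% at kainate day 1. The leukocyte genes S100a8 and S100a9 did not pass the filter on low values.

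Of 6 other annexins measured, 3 were higher at pilocarpine day 1 and 2 at kainate day 1, and none was lower. The shares of all genes tested that were higher in these groups were 15.8% and 22.2%. Anxa5, the phosphatidylserine binder, was higher by 0.76 ± 0.19 at pilocarpine day 1 (adjusted p = 0.0018) and Anxa4 by 0.70 there and 0.57 at kainate day 1. Anxa11, which tethers RNA granules to lysosomes, was higher by 0.42 at pilocarpine day 1 and 0.39, 0.38 and 0.38 at kainate days 1, 3 and 10, and by 0.22 ± 0.07 at kindling stage 5 (adjusted p = 0.044).

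Of 11 ERM regulators and anchors measured, 3 were higher and 1 lower at pilocarpine day 1, 5 higher and 1 lower at kainate day 1, and 2 higher and 1 lower at SSSE day 1. All genes tested gave 15.8% higher and 16.3% lower, 22.2% and 19.4%, and 5.51% and 7.02% in these 3 groups. Pdpn (podoplanin), a membrane anchor of ERM proteins, was higher by 2.05 ± 0.14 at kainate day 1 (adjusted p = 8.5e-16), 1.5 ± 0.25 at pilocarpine day 1 and 0.94 ± 0.29 at SSSE day 1. Spn, another anchor, was higher by 0.89, 0.78 and 1.19 in the same groups, and Rhoa, the small GTPase upstream of Rock2, by 0.62 and 0.61 in the first pair of them. The ERM kinase Slk was higher by 0.55 at kainate day 1, whereas Stk10 was lower by -0.51 at SSSE day 1 and -0.56 at kainate day 10. Rock2 was lower by -0.25 at kindling stage 5.

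Of 11 genes of the hyaluronan and Cd44 pathway measured, 4 were higher and 2 lower at pilocarpine day 1, 3 higher and 1 lower at kainate day 1, and 2 in each direction at SSSE day 1. The shares of all genes tested were 15.8% higher and 16.3% lower, 22.2% and 19.4%, and 5.51% and 7.02%. Mmp9, a protease that docks on Cd44, was higher at every time of the 3 SE models, by 1.84 ± 0.23 at kainate day 1 (adjusted p = 5.9e-09), 1.70 ± 0.28 at pilocarpine day 1 and 2.98 ± 0.22 at SSSE day 3 (3.1e-07), and by 0.80 ± 0.21 at kindling stage 5 (0.013). Spp1 (osteopontin), a Cd44 ligand, was higher by 1.49 ± 0.18, 1.48 ± 0.24 and 1.24 ± 0.37 at day 1 of kainate, pilocarpine and SSSE. Cemip, which degrades hyaluronan, was lower by -0.98 ± 0.14 at kainate day 1 and -0.50 ± 0.15 at SSSE day 1. Vcan, a hyaluronan-binding proteoglycan, was higher by 0.90 ± 0.18 at pilocarpine day 3 (0.00035).

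Of 11 partners of annexins and S100 proteins measured, 3 were higher and 1 lower at pilocarpine day 1 and 5 higher and 1 lower at kainate day 1. The shares of all genes tested were 15.8% higher and 16.3% lower, and 22.2% and 19.4%. Plau and Plat, the plasminogen activators (Plat binds the complex of Anxa2 and S100a10), were higher by 1.16 ± 0.20 and 0.81 ± 0.17 at kainate day 1. At pilocarpine day 1 they were higher by 0.83 ± 0.19 and 0.57 ± 0.16. Tgm2, a transglutaminase, was higher by 0.89 ± 0.17 at kainate day 1 and 1.34 ± 0.25 at pilocarpine day 1. Asic1, a channel whose surface level S100a10 raises, was lower by -0.79 ± 0.15 and -0.54 ± 0.13 in the same order. Cacybp, the partner of S100a6, was higher by 0.38 ± 0.09 at SSSE day 1 (0.0091).

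Markers of other cell types also moved after SE, though not each type in every group. Of 13 microglia and macrophage markers, 7 were higher and 1 lower at pilocarpine day 1, 10 higher at day 3 and 5 at day 10. After kainate 6 were higher and 1 lower at day 1, 11 higher at day 3 and 8 at day 10. Of all genes tested, 15.8%, 7.74% and 3.82% were higher on these days after pilocarpine, and 22.2%, 4.66% and 2.57% after kainate. At day 1, 16.3% and 19.4% were lower. Their summed signal was 948 to 3610 at pilocarpine day 3, against 386 to 1350 in controls, and 884 to 1549 at kainate day 3, against 395 to 1203. At kainate day 1, where the change of Msn was largest, it was 376 to 970 with a median of 760, against a median of 525 in controls. In laboratory B 3 of 6 of these rats lay above every control there, and in laboratory A 0 of 6 did, although 5 of 6 lay above all controls there other than rat 5. At pilocarpine day 1, 6 of 6 rats of laboratory B and 0 of 6 of laboratory A lay above every control of their laboratory. In laboratory A, 2 of 6 lay above all controls there other than the highest (1350, with the next at 825). P2ry12, a marker of resting microglia, was lower by -0.99 at kainate day 1. At SSSE day 1, 0 of the 13 microglia and macrophage markers were higher and 1 lower (5.51% and 7.02% of all genes). At SSSE day 3, 2 were higher (1.66%), and at day 10 none passed (0.177% of all genes higher and 0.167% lower). In SSSE the sums were 722 to 1063 at day 3, against 419 to 761 in controls, and 317 to 710 at day 1. The means of Anxa3 and the medians of these sums were both highest at day 3 in the 3 SE models. The part of microglia in the changes of the members was not tested.

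Of 13 astrocyte markers, 9 were lower at day 1 of pilocarpine and of kainate with 1 higher (Gfap by 1.96 ± 0.20 after kainate), and 5 and 4 were higher at day 3. The counts of this paragraph stand beside these shares of all genes tested. At day 1, 15.8% were higher and 16.3% lower after pilocarpine, and 22.2% and 19.4% after kainate. At day 3, 7.74% and 4.66% were higher. The summed signal was 2781 to 9324 at pilocarpine day 1, against 5387 to 13950 in controls, and 4823 to 8226 at kainate day 1, against 6240 to 9148. Of 10 endothelial markers, 3 were higher at pilocarpine day 1 and 2 higher and 1 lower at kainate day 1, with sums of 355 to 1009, against 310 to 1218 in controls, and of 379 to 809, against 336 to 1128. No mural or fibroblast marker of 10 passed at day 1, and 4 were higher at pilocarpine day 3. Oligodendrocyte markers (9 measured) gave 2 lower at pilocarpine day 1, and the 1 blood leukocyte marker measured of 10 did not pass. Of 12 granule cell markers, 7 were lower at pilocarpine day 1, and 8 lower and 1 higher at kainate day 1, with sums of 11770 to 17600, against 16850 to 27630, and of 9069 to 14390, against 13230 to 22810. Kainate laboratory A control rat 5 had the highest microglia (1203), endothelial (1128) and mural (1228) sums of its group, and it was also the highest of them in 8 of the 10 members (not in Rdx and Cd44). The part of these markers in the members' changes was not tested.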

How the data were processed

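Signal intensity per probe set, on a linear scale, was taken from the authors' deposited table of 172 arrays, made with MAS5 (version not given) per the submitters' processing notes. Every array had been scaled to one trimmed mean (150.04 to 150.06). A probe set was kept when its rat means lay above the array median in at least 6 rats, 16 was added, and log2 was taken. The 8 rats with 2 arrays entered as their mean. Each gene was read from its brightest kept probe set, which gave 10761 genes, and 15 of the 20 probe sets of the members were kept. Levels of different probe sets are not compared.

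The members and the gene lists were chosen with earlier results of these data known. limma 3.58.1 (R 4.3.3) fitted each model with 1 mean per group, and contrasts averaged laboratories with equal weight. The Benjamini-Hochberg adjustment ran over all genes tested, with a threshold of 0.05. Models and control levels were compared in 1 fit of 28 groups. Differences between days, between laboratories and between models were planned as tests and are given as descriptions, since they combine changes that chose the genes. The same holds for the control levels, since control values entered those changes. On data simulated for kainate day 1 with 10761 genes, 98 of 100 genes changed by 1 (log2) were recovered, and 100 of 100 changed by 2. All members are named. Of each list of relatives up to 4 genes per comparison that passed are named by size, of each marker list up to 2, and for each member the 3 genes with the highest correlation. Rat number was used as a block in an alternative only. The number of arrays limits the precision. The p-values set a difference against the spread between rats within groups. They do not take in the spread between laboratories, of which each model had 1 or 2. Plots were drawn with matplotlib (version 3.10.9).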

Additional observations from a re-analysis of the deposited data

Results flagged for a closer look

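Within single groups of 4 to 6 rats, 24 of 280 group and gene combinations had 1 rat set far from the others (Dixon's test at the 95% level), and chance sets apart about 1 in 20. In kainate laboratory A control rat 5 was high in Ezr (7.94, others 6.03 to 6.60), Anxa1 (6.04, others 4.40 to 4.95) and Anxa2 (7.75, others 4.59 to 5.53). In pilocarpine laboratory A control rat 1 was high in Anxa3 (6.83, others 6.04 to 6.31) and S100a10 (7.81, others 5.63 to 6.41), and control rat 2 in S100a6 (5.88). In pilocarpine laboratory B control rat 1 was high in Ezr (6.66) and control rat 3 in S100a6 (5.36). In kindling laboratory A control rat 2 was high in Anxa2 (7.41, others 5.16 to 5.66) and S100a10 (7.09, others 6.03 to 6.26). Without kainate control rat 5, 10, 5 and 2 members were higher at days 1, 3 and 10, and without pilocarpine control rat 1, 8, 7 and 4 were (alternatives chosen after the data were seen).

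Among treated rats, those set apart above their group were kainate laboratory B day 1 rat 3 in Ezr (8.07), pilocarpine laboratory A day 1 rat 4 in Anxa1 (6.38) and day 10 rat 4 in Cd44 (5.88), and pilocarpine laboratory B day 3 rat 6 in Msn (7.18). Below their group stood pilocarpine laboratory A day 3 rat 1 in Cd44 (4.50, others 6.07 to 6.78) and kainate laboratory B day 10 rat 4 in S100a4 (5.19). In kindling laboratory A, stage 2 rat 5 was high in Ezr (7.23) and low in Rdx (6.60), and stage 4 rat 6 was high in Anxa1 (5.60). In kindling laboratory B, stage 2 rat 6 was high in Ezr (6.82) and Cd44 (4.69), stage 2 rat 2 was high in S100a6 (5.01), stage 2 rat 1 was low in S100a4 (4.72) and stage 5 rat 1 was low in S100a10 (5.44).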

How the results depend on the processing

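No change from control that passed turned its direction under any alternative run. Of 1914 recomputed changes 24 turned their sign, none of which had passed, among them Rdx (-0.05) and Anxa1 (-0.11) at pilocarpine day 10 without laboratory B rats 1, 2 and 3. Leaving aside the counts against control within a single laboratory, 575 of 637 recomputed counts stayed within 1.5 times the reported one. Most that did not are in SSSE, where groups have 4 to 6 rats. Leaving out 1 SSSE rat at a time gave 0 to 6 higher members at day 1, 0 to 2 higher and 0 to 1 lower at day 3, 0 to 2 members passed for SSSE day 3 minus day 1, and 0 to 2 of the differences between models. With SSSE day 1 rat 3 as a control, 0 members were higher at day 1 and at day 3, and with it left out 1 was higher at day 1 and 0 lower at day 3. The 6 rats that correlated least with their group were also left out together: 5 were then higher at SSSE day 1, 0 higher and 0 lower at SSSE day 3, and 2 differences between models passed (S100a4 and S100a10, pilocarpine minus SSSE at day 3). Rdx at SSSE day 3 no longer passed (0 lower) with 1 added before the logarithm, with no filter on low values, with first arrays only, or with the mean over the probe sets of a gene. Rat number as a replicate block gave 0 higher at SSSE day 3 and moved no other count by over 1.5 times. Numbers were not taken to pair the rats, since the labels do not say so and same-numbered rats of a laboratory correlated over 0.1 in 89 of 240 pairs (median 0.068, against -0.016 for other pairs). As a hint from the data alone, the closest rat carried the same number for 50 of 164, where 27.2 would by chance.

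With all 28 groups fitted together, 5 members were higher at pilocarpine day 10 and 2 at SSSE day 3. There 6 and 2 passed the threshold for pilocarpine day 3 minus day 1 and day 10 minus day 3. So did 1 difference between laboratories (Cd44 at pilocarpine day 10, -1.67), again as a description. Quantile normalization let 3 differences between models pass and left 1 related gene lower at kainate day 10. With 64 added, 2 members differed between controls, and with a stricter filter on low values, which tests fewer genes, 5 were higher at pilocarpine day 1. One laboratory alone gave 0 for pilocarpine day 3 minus day 1 and day 10 minus day 3 (B) and for kainate day 10 minus day 3 (A). Without pilocarpine laboratory B day 10 rats 1, 2 and 3, 0 were higher at pilocarpine day 10. The cause of these shifts was not tested. Cd44, Anxa1 and S100a6 lie near the floor in controls, which limits the size of their changes.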

Other observations

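At kindling stage 5, where none of the 10 genes passed, genes outside the set did. Gfap, the astrocyte filament gene, was higher than controls there by 0.62 ± 0.14 (limma adjusted p = 0.0053), and was also higher by 1.32 ± 0.34 at SSSE day 1 and by 2.43 ± 0.24 at pilocarpine day 3. Calb1, the granule cell calcium buffer, was lower by -1.28 ± 0.16 at pilocarpine day 3 (1.5e-07), by -1.0 ± 0.16 at pilocarpine day 10 and by -0.42 ± 0.12 at kindling stage 5. Rasgrp1 was higher by 0.55 ± 0.14 at kindling stage 5 and 0.81 ± 0.22 at SSSE day 3. Whether any of these differ in size between models was not tested.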
